A study of Mus musculus with 6 samples.

Results

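The negative feedback genes of the extracellular signal-regulated kinase (ERK) pathway were examined in the livers of mice with diet-induced nonalcoholic steatohepatitis (NASH). The 10 genes were taken by symbol from the deposited table of 24346 gene names: the dual-specificity phosphatases Dusp4, Dusp5, Dusp6 and Dusp7, the Sprouty genes Spry1, Spry2 and Spry4, the Spred genes Spred1 and Spred2, and the transcription factor gene Etv5. All 10 were present. RNA of 3 control livers (Cont) was compared with RNA of 3 lipophagy-induced livers (LIR), to ask whether the feedback genes differed after autophagy of lipid droplets had been induced in hepatocytes. Both groups were male C57BL/6J mice (C57BL/6 in the labels), 8 weeks old when a high-fat diet lacking choline (CDAHFD) began, and were kept on it for 6 weeks, moved to normal chow and analysed 2 weeks later. Both also carried an adeno-associated virus of serotype 8 whose thyroxine-binding globulin promoter drives expression in hepatocytes. In the control mice it encoded the lipid droplet-targeting signal of perilipin 1 with a mutated LC3-interacting region (LDTS-LIR mut), and in the lipophagy mice the same signal with an engineered LC3-interacting region (LDTS-eLIR), which recruits autophagosomes. No liver on normal diet or without virus was analysed here. The droplet-targeting signal itself, which the study describes as lipogenic, was therefore present in every liver.

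Growth factors bind receptor tyrosine kinases, which activate RAS, then the kinases RAF and MEK, and at last ERK, whose phosphorylated form enters the nucleus and switches on genes. Some of these genes encode brakes on the same pathway: DUSP phosphatases take the phosphates off ERK, Sprouty proteins act between the receptor and RAF, and SPRED proteins bring the RAS inactivator neurofibromin to the membrane. Because ERK itself induces them, the messenger RNA of DUSP6, the Sproutys and the PEA3 family factor ETV5 is widely used as a readout of ERK output, and in the liver the pathway serves hepatocyte growth and regeneration, stellate cell activation and inflammation.

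Values were FPKM, the number of sequenced fragments of a gene scaled to its length and to all mapped fragments of the library, a level that can be compared between genes. The depth of a liver, estimated from the steps in which low values rise, was 24.4 to 34.8 M fragments in control and 23.4 to 25.4 M in lipophagy livers. Tests used limma on log2(FPKM + 1) in 11493 genes whose mean over the livers reached 0.5 FPKM, p-values were adjusted over this whole set (Benjamini-Hochberg), and log2 changes are lipophagy minus control. This scale understates the change of low genes. With 3 livers against 3, the two-sided exact permutation test of a single gene cannot go below 0.1. The p-values set the difference between groups against the spread between these livers. The labels do not state which livers came from which cage or day, so a difference between groups may include one of cage or day.

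No feedback gene passed the test for a difference between control and lipophagy-induced livers, and in each of them the groups overlapped. Of the 10 genes, 7 passed the filter, and of these 0 had an adjusted p below 0.05 (limma), against 0.0261% of all tested genes. Likewise 0 reached an unadjusted p below 0.05, against 7.97% of tested genes for lower and 11.5% for higher values (916 and 1327 genes, or 899 and 745 after quantile normalization). In 0 of the 7 genes did the groups separate. Of all tested genes, 10.8% had every lipophagy liver below every control liver and 15.4% had every lipophagy liver above. Whether a count of 0 among 7 genes differs from these shares was not tested. All 7 had log2 changes below 0, as had 45.5% of tested genes, and their median was -0.15 against 0.020 over all tested genes. After quantile normalization 5 of the 7 were below 0 and the median was -0.068. With the filter lowered to a mean of 0.1 FPKM, which took in all 10 genes, 9 were below 0 and 1 above, the median was -0.14, and again 0 had an adjusted or an unadjusted p below 0.05 (limma). The members were not drawn at random from the genome, and no test was made of the count of lower genes or of the median.

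The genes lay at very different levels. Dusp6 had a mean of 12.6 FPKM over the 6 livers, and its lowest liver (8.27 FPKM) was above the highest value of any other feedback gene (2.54 FPKM, Spred1). Next came Spred1, Spry1 and Dusp7, with means of 1.83, 1.53 and 1.41 FPKM, whose ranges over the livers overlapped. The highest value of Etv5 (1.06 FPKM) was below the lowest of Dusp7 (1.22 FPKM). From Etv5 downwards, through Spred2, Spry4, Dusp4, Spry2 and Dusp5, each gene overlapped with the next, and the means went from 0.849 to 0.198 FPKM. Dusp4, Spry2 and Dusp5 were below the filter of 0.5 FPKM.

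**Figure D1:**
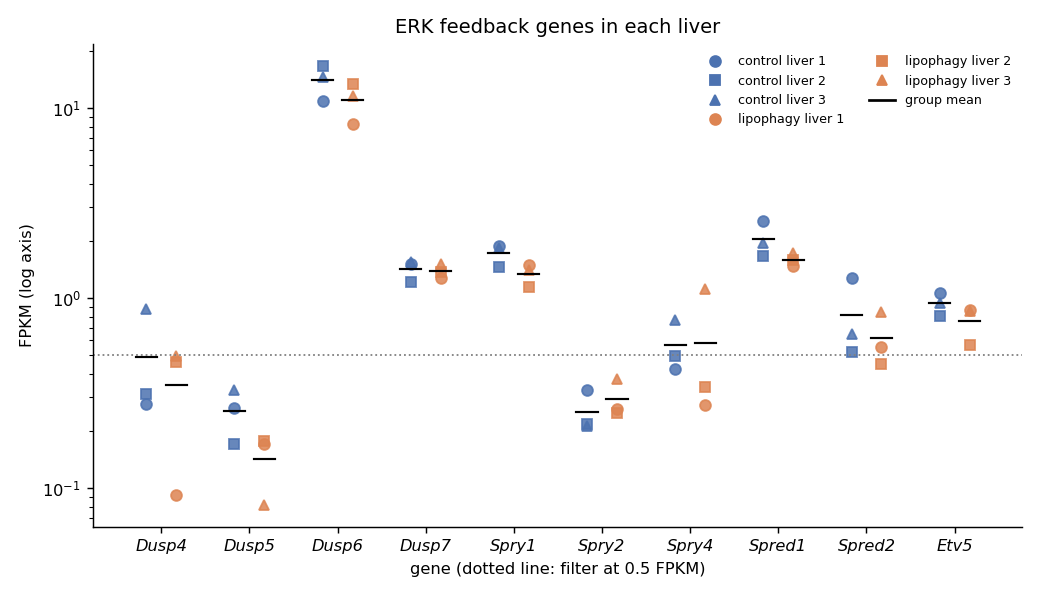
FPKM (log axis) of the 10 genes in each of the 6 livers, with control livers in blue, lipophagy livers in orange, a symbol for each liver number and a bar at the group mean. Dusp6 lies at 8.27 to 16.7 FPKM, all other genes lie at or below 2.54 FPKM, and in every gene the control and the lipophagy livers overlap.

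Dusp6 encodes a cytoplasmic phosphatase with high selectivity for ERK (GRCm38, chr10:99263231-99267489). Its level was 10.9, 16.7 and 14.5 FPKM in control livers 1, 2 and 3 and 8.27, 13.3 and 11.6 FPKM in lipophagy livers 1, 2 and 3. Liver 1 was the lowest and liver 2 the highest of each group, and lipophagy livers 2 and 3 lay within the range of the controls. The control mean was 14.0 ± 2.91 FPKM (SD, n = 3). The lipophagy mean of 11.1 ± 2.58 FPKM (SD, n = 3) was 78.9% of it. The log2 change was -0.32 (standard error 0.19, 95% interval -0.76 to 0.12, adjusted p = 0.374, limma). With single livers left out it ranged from -0.48 without control liver 1 to -0.14 without lipophagy liver 1. An estimated 522 to 1313 fragments stood behind each value, so counting error, at most 4.38% of a value, was small beside the spread between livers.

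Dusp7, the other cytoplasmic ERK phosphatase of the set (chr9:106368560-106375724), was nearly level. It measured 1.52, 1.22 and 1.56 FPKM in the control livers and 1.27, 1.38 and 1.51 FPKM in the lipophagy livers, and all 3 lipophagy livers lay within the control range. Its log2 change of -0.025 had the narrowest interval among the 7 tested genes (-0.23 to 0.18, adjusted p = 0.894, limma), which leaves room for differences of up to 0.853-fold or 1.13-fold in FPKM + 1. With quantile normalization the sign turned (0.068).

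The nuclear phosphatases were both below the filter. Dusp5, which holds ERK in the nucleus (chr19:53529145-53541809), was the rarest of the 10 transcripts, at 0.265, 0.170 and 0.326 FPKM in control livers and 0.171, 0.177 and 0.0816 FPKM in lipophagy livers. The lipophagy mean was 56.4% of the control mean, the lowest ratio among the 10 genes, but control liver 2 lay below lipophagy livers 1 and 2. These values rest on an estimated 4.71 to 25.8 fragments, for which counting error alone is 19.7% to 46.1% of the value. In the fit with the lower filter its log2 change was -0.13 (95% interval -0.29 to 0.025, adjusted p = 0.337, limma). Dusp4, a nuclear phosphatase of ERK and related kinases (chr8:34807610-34819894), varied most between livers, over a 9.49-fold range. It was at 0.278 and 0.313 FPKM in control livers 1 and 2 and 0.876 FPKM in control liver 3, and at 0.0923, 0.459 and 0.495 FPKM in the lipophagy livers. Control liver 3 was the highest and lipophagy liver 1 the lowest of all. The log2 change of -0.13 became 0.044 without the former and 0.011 without the latter, so no direction can be given for Dusp4.

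Spry1 had the lowest unadjusted p of the tested genes in the set. Sprouty proteins are induced by growth factors and block the signal from receptor to RAF, and Spry1 (chr3:37639947-37644599) was the most abundant of the 3 members. Control livers were at 1.87, 1.46 and 1.82 FPKM and lipophagy livers at 1.49, 1.15 and 1.40 FPKM. Lipophagy livers 2 and 3 lay below every control liver, and lipophagy liver 1 lay just above control liver 2. The lipophagy mean was 78.2% of the control mean and the log2 change was -0.21 (standard error 0.097, 95% interval -0.44 to 0.0099, adjusted p = 0.272, limma), or -0.14 after quantile normalization.

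Spry4 (chr18:38586247-38601347) had 1 lipophagy liver far from the other two. The controls were at 0.425, 0.498 and 0.768 FPKM, lipophagy livers 1 and 2 were lower, at 0.272 and 0.341 FPKM, and lipophagy liver 3 was the highest of all, at 1.12 FPKM. The log2 change was -0.021 (95% interval -0.46 to 0.42, adjusted p = 0.960, limma) with all livers and -0.25 without lipophagy liver 3 (adjusted p = 0.249, limma). Mean FPKM, by contrast, was 102% of the control mean, so the mean and the log2 change differed in sign. An estimated 30.2 and 129 fragments stood behind lipophagy livers 1 and 3, with exact Poisson intervals of 20.4 to 43.0 and 108 to 154, so the gap between these livers exceeds counting error. The sign of the small difference also turned with quantile normalization (0.055).

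Spry2 (chr14:105891947-105896819) was the only one of the 10 genes with a log2 change above 0. It was at 0.328, 0.217 and 0.212 FPKM in control livers and 0.261, 0.248 and 0.375 FPKM in lipophagy livers, and lipophagy liver 3 was the highest. The lipophagy mean was 117% of the control mean. Counting error at this depth was 23.6% to 31.6% of each value, so a difference of this size was not detectable. The log2 change was 0.048 in the fit with the lower filter (95% interval -0.11 to 0.20, adjusted p = 0.732, limma), and it went from 0.0036 without lipophagy liver 3 to 0.091 without control liver 1.

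The 2 Spred genes shared a high value in control liver 1. Spred1 (chr2:117121071-117182279), mutated in Legius syndrome in humans, was at 2.54, 1.67 and 1.96 FPKM in control livers and 1.48, 1.58 and 1.72 FPKM in lipophagy livers. Lipophagy livers 1 and 2 were below every control liver and lipophagy liver 3 was just above control liver 2. The lipophagy mean was 77.5% of the control mean, with a log2 change of -0.23 (standard error 0.11, 95% interval -0.49 to 0.032, adjusted p = 0.301, limma). Without control liver 1 this was -0.12. Spred2 (chr11:19924442-20024026) was at 1.27 FPKM in control liver 1 against 0.523 and 0.645 FPKM in control livers 2 and 3, and at 0.554, 0.447 and 0.841 FPKM in the lipophagy livers. Its log2 change of -0.15 (95% interval -0.52 to 0.22, adjusted p = 0.613, limma) became 0.021 without control liver 1, so no direction can be given for Spred2.

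Etv5, an ETS factor of the PEA3 family that ERK both induces and activates (chr16:22381313-22439570), was at 1.06, 0.808 and 0.946 FPKM in control livers and 0.865, 0.566 and 0.851 FPKM in lipophagy livers. Lipophagy liver 2 was the lowest, and the other two lay within the control range. The lipophagy mean was 81.1% of the control mean (log2 change -0.14, standard error 0.098, 95% interval -0.37 to 0.085, adjusted p = 0.445, limma). Without lipophagy liver 2 the log2 change was -0.059, and after quantile normalization it was -0.056. Its relatives Etv1 and Etv4, both below the filter, were at most 0.104 and 0.120 FPKM in any liver.

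**Figure D2:**
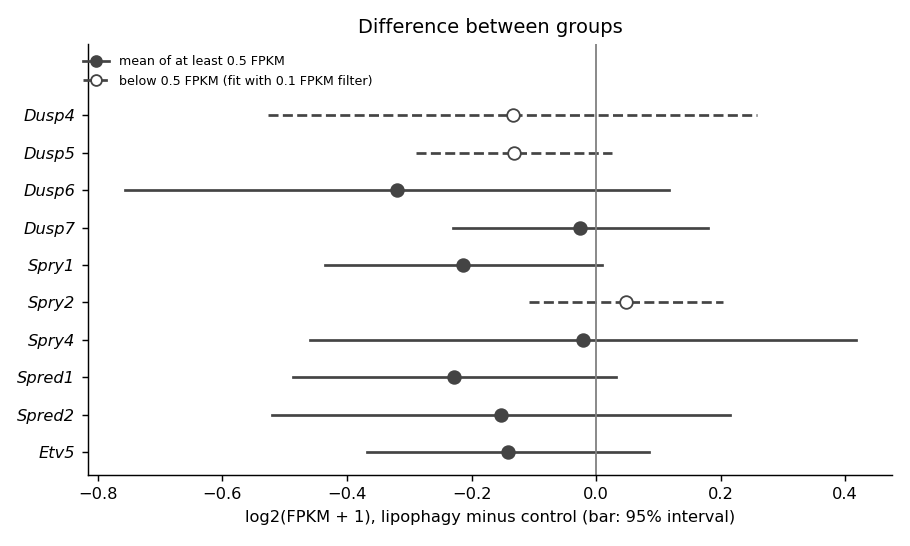
Difference in log2(FPKM + 1), lipophagy minus control, for the 10 genes, with 95% intervals from limma. Filled points are the 7 genes that passed the filter of 0.5 FPKM, open points the 3 genes fitted with a filter of 0.1 FPKM, and each of the 10 intervals spans 0.

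The feedback genes did not share one order of livers. Control liver 1 was the highest liver for 4 genes (Spry1, Spred1, Spred2 and Etv5) and control liver 3 for 3 genes (Dusp4, Dusp5 and Dusp7), while Dusp6 was highest in control liver 2. Spry2 and Spry4 were highest in lipophagy liver 3. Lipophagy liver 1 was the lowest liver for 4 genes and lipophagy liver 2 for 3 genes. As the mean deviation of the 7 tested genes from each gene's own mean, control livers 1, 2 and 3 were at 0.13, -0.0049 and 0.11 and lipophagy livers at -0.17, -0.13 and 0.065 on the log2 scale. Lipophagy liver 3 thus lay above control liver 2, and the groups overlapped.

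Single livers decided how many genes separated. Without control liver 2, the 2 remaining controls lay above all lipophagy livers in 4 of the 7 genes (Dusp7, Spry1, Spred1 and Etv5), against 14.8% of all tested genes with that liver left out. Under the same omission Spry1 and Spred1 had an unadjusted p below 0.05 (limma), against 5.79% of tested genes with lower values. Dusp6, also lower, had one without control liver 1 or without lipophagy liver 2 (limma), against 7.87% and 7.39% of tested genes with lower values. Without lipophagy liver 3, Spry4 and Spred1 separated with lower values, against 18.5% of tested genes lower and 25.9% higher. Dusp6 separated lower without control liver 1, against 16.4% lower and 20.9% higher. Spry1 did so without lipophagy liver 1, against 14.4% lower and 18.4% higher. In 0 of these fits did a feedback gene have an adjusted p below 0.05 (limma), and the lowest adjusted p among them was 0.249.

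**Figure D3:**
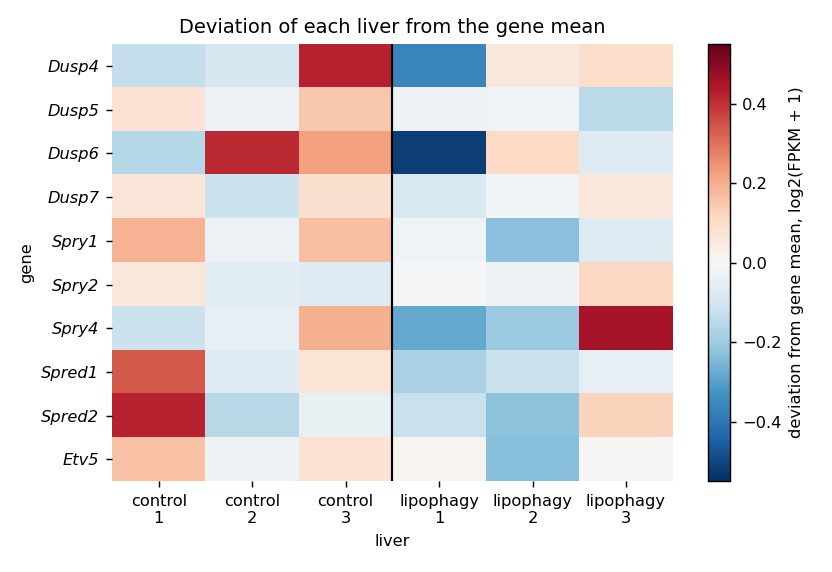
Deviation of each liver from the gene's mean over the 6 livers on the log2(FPKM + 1) scale, for the 10 genes (rows) and the 6 livers (columns, controls left of the line), with red above and blue below the mean. The strongest values include lipophagy liver 1 for Dusp6, lipophagy liver 3 for Spry4, control liver 1 for Spred2 and control liver 3 for Dusp4.

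Other genes along the pathway were listed by their role, and the adjustment was passed by 1 of them. Of the 21 growth factors, 11 were tested, 7 of them had an unadjusted p below 0.05 with lower and 1 with higher values (limma, against 7.97% and 11.5% of all tested genes), and the median log2 change was -0.24. The groups separated in 6 lower genes and 1 higher gene, against 10.8% and 15.4% of all tested genes. Fgf21, a hepatocyte hormone of nutrient stress, had the lowest value (-0.83, adjusted p = 0.111, limma): it was at 3.52, 3.61 and 2.34 FPKM in control and 1.41, 1.58 and 0.986 FPKM in lipophagy livers. Fgf1 had the highest (0.27, adjusted p = 0.250, limma), and measured 8.93 ± 0.372 FPKM (SD, n = 3) in control but 11.1 ± 1.95 FPKM (SD, n = 3) in lipophagy livers. Its log2 change was 0.15 without lipophagy liver 3. The list of 16 receptor tyrosine kinases included a co-receptor of fibroblast growth factors, and 12 of the 16 genes were tested. An unadjusted p below 0.05 was found for 3 lower and 1 higher gene (limma, against the same 7.97% and 11.5%), and the median was -0.13. The groups separated in 4 lower genes and 1 higher gene. Pdgfrb, the platelet-derived growth factor receptor of stellate cells, was the lowest (-0.32, adjusted p = 0.135, limma), and Egfr, the abundant epidermal growth factor receptor of hepatocytes, the highest (0.29, adjusted p = 0.219, limma), at 79.8 ± 1.03 FPKM (SD, n = 3) in control and 98.5 ± 13.8 FPKM (SD, n = 3) in lipophagy livers. After quantile normalization the log2 change of Egfr was 0.15.

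The kinase cascade itself had the median closest to 0 among the lists. Of 24 genes between receptor adaptor and ERK, 23 were tested, 12 with a log2 change below 0 and 11 above, and the median was -0.0083. An unadjusted p below 0.05 was found for 1 lower and 2 higher genes (limma), where the shares over all tested genes were 7.97% and 11.5%. The groups also separated in 1 lower and 2 higher genes, where those shares were 10.8% and 15.4%. The adaptor gene Gab1 was the lowest (-0.29, adjusted p = 0.213, limma) and Pebp1, which encodes a RAF inhibitor, the highest (0.24, adjusted p = 0.229, limma), though Pebp1 was at 0.072 after quantile normalization. The 10 transcription factors at the end of the cascade had a median of -0.096, with Ets1 lowest (-0.18) and Elk4 highest (0.093), and 0 of them had an unadjusted p below 0.05 (limma). The sign for Elk4 turned without control liver 3 (-0.0025), and Ets1 was at -0.055 without control liver 1.

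Among immediate early and delayed ERK targets other than the feedback genes, 15 of 21 were tested, 14 had a log2 change below 0 and the median was -0.35. An unadjusted p below 0.05 was found for 7 of them, each with lower values (7.97% of all tested genes), and in 6 the groups separated (10.8% of all tested genes), against 0 of the 7 feedback genes in both counts. Whether both lists differ was not tested. The lowest was Phlda1, a pleckstrin homology-like gene induced by growth factors (-2.15, standard error 0.19, adjusted p = 0.0198, limma), which was the only gene on these lists past the adjustment. Its control mean was 56.4 ± 13.7 FPKM (SD, n = 3) and its lipophagy mean 11.8 ± 2.19 FPKM (SD, n = 3), with 3 of 3 lipophagy livers below every control. The adjusted p was 0.0547 when control liver 3 was left out, 0.0640 when lipophagy liver 1 was, and 0.163 with no filter on low values (limma), where the log2 change was -1.99, -2.00 and -2.15. Epha2, an ephrin receptor, had the highest value (0.099, adjusted p = 0.880, limma), with 6.66 FPKM in lipophagy liver 3, and was at -0.27 without that liver.

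**Figure D4:**
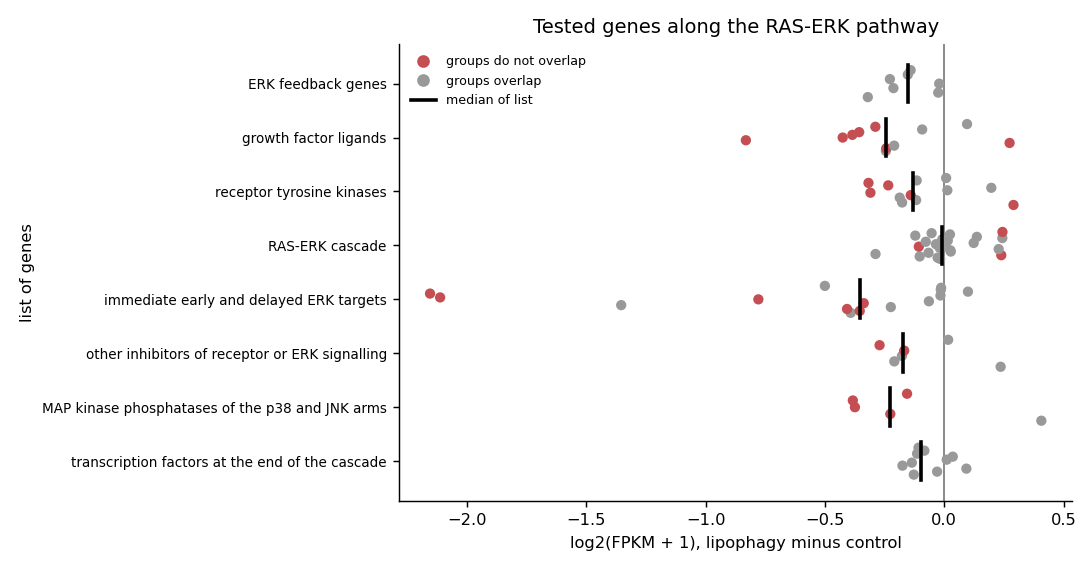
Log2 change, lipophagy minus control, of each tested gene in the feedback set and in 7 lists along the pathway, in red where the 3 livers of one group lie beyond the 3 of the other and with a black bar at the list's median. The feedback genes show 0 red points, the cascade lies around 0, and Phlda1 and Myc are the leftmost points among the ERK targets.

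Other brakes gave mixed values. Of 11 further inhibitors, 6 were tested, 4 with a log2 change below 0 and 2 above, and the median was -0.17. An unadjusted p below 0.05 was found for 1 lower gene (limma, against 7.97% of all tested genes). The groups separated in 2 lower genes, against 10.8% of all tested genes. The adaptor gene Dok2 was the lowest (-0.27, adjusted p = 0.212, limma), and Errfi1, the receptor inhibitor MIG6, the highest (0.24, adjusted p = 0.437, limma). The value for Errfi1 was 0.064 without lipophagy liver 3 and 0.053 after quantile normalization. Errfi1 was far more abundant than any feedback gene of the set, at 201, 170 and 166 FPKM in control and 203, 171 and 267 FPKM in lipophagy livers. Spry3 was listed at 0 in all 6 livers, and Spred3 and Dusp9 were at most 0.150 and 0.119 FPKM.

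A further list held 5 DUSP phosphatases that act on the p38 and JNK kinases, some of them also on ERK. All 5 were tested, and in 4 of them (Dusp2, Dusp8, Dusp10 and Dusp16) every lipophagy liver was below every control liver, against 10.8% of tested genes. Dusp10 was the lowest (-0.38, standard error 0.10, adjusted p = 0.151, limma), at 2.38, 2.95 and 2.40 FPKM in control and 1.83, 1.94 and 1.46 FPKM in lipophagy livers. Dusp8 was at 0.816 ± 0.185 FPKM (SD, n = 3) and 0.397 ± 0.0554 FPKM (SD, n = 3) (log2 change -0.37, adjusted p = 0.140, limma). Dusp1, an immediate early phosphatase, was the exception (0.41, standard error 0.50, adjusted p = 0.670, limma): it was at 6.56 to 9.24 FPKM in controls, 6.90 and 5.81 FPKM in lipophagy livers 1 and 2 and 29.6 FPKM in lipophagy liver 3, and at -0.28 without that liver. In the 5 genes the adjusted p stayed above the threshold (limma). An unadjusted p below 0.05 was found for 3 of them, each lower (limma, against 7.97% of all tested genes). The difference between these genes and the ERK phosphatases was not tested.

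The 5 tested genes whose pattern was most like the mean of the 7 feedback genes were Zbtb26, Klhdc8b, Rasa4, Cables1 and Cpd. Pearson's r on the log2(FPKM + 1) scale was 0.995, 0.991, 0.990, 0.987 and 0.987, over 6 livers that share the division into 2 groups, and the genes were picked as the most alike among the remaining tested genes. Among them, Rasa4 encodes a RAS GTPase-activating protein. Klhdc8b, which encodes a kelch domain protein, was at 4.88, 3.80 and 4.45 FPKM in control livers and 2.83, 3.13 and 4.41 FPKM in lipophagy livers, where, as for the feedback mean, lipophagy liver 3 lay among the controls. The log2 changes of the 5 genes were -0.28 to -0.13 with adjusted p from 0.307 to 0.416 (limma).

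These are values of whole liver, in which fewer cells of a type and less RNA per cell cannot be told apart. Of the marker lists, hepatocyte genes such as Alb were abundant in every liver and all 8 were detected. The summed level of 8 stellate cell markers was 41.0 to 45.2 FPKM in control and 28.5 to 33.2 FPKM in lipophagy livers, and that of 8 lymphocyte markers 7.01 to 8.73 and 5.56 to 6.45 FPKM. Hepatocyte markers summed to 54778 to 61779 FPKM in control and 65767 to 88604 FPKM in lipophagy livers, and 5 neutrophil markers to 18.8 to 32.0 and 16.1 to 18.7 FPKM, so the sums of these 4 lists did not overlap between groups, by little for neutrophils. The sums rest on their most abundant genes. Against 10.8% of all tested genes that separated lower and 15.4% higher, single markers separated in 5 of 8 tested stellate genes (Lrat was higher, at 0.25), 4 of 8 hepatocyte genes (Alb among them, while Apoa1 was at -0.062), 2 of 3 neutrophil genes and 1 of 4 lymphocyte genes, the leukocyte gene Ptprc. Macrophage, endothelial and bile duct sums overlapped, at 477 to 628, 22.1 to 28.0 and 137 to 247 FPKM in control and 463 to 589, 26.3 to 42.4 and 92.0 to 196 FPKM in lipophagy livers. Most of the macrophage sum was Lyz2, and 2 of 7 tested macrophage genes separated, Cd68 (-0.38) and Csf1r (-0.28). Of the markers in the table, 0 were at 0 in all livers. The part of cell composition in the values of the feedback genes was not tested.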

How the data were processed

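Liver RNA of 6 mice was sequenced by the authors from stranded poly(A) libraries in paired-end mode (100 bp). The authors deposited FPKM values, 1 column per liver; the submitters' processing notes name TopHat2 2.0.13, Bowtie2 2.2.3, SAMtools 0.1.19, Cufflinks 2.2.1 and mm10. FPKM values are scaled to transcript length and mapped fragments, and count models were therefore left aside. No column of another sample was in the table, and 0 pairs of livers held identical values.

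Groups and numbers came from sample titles. Values were tested as log2(FPKM + 1) with limma 3.58.1 in R 4.3.3 (intensity trend, no covariates, two-sided, filter at a mean of 0.5 FPKM, which left 11493 genes, Benjamini-Hochberg, threshold 0.05). The code was tested on simulated data. Depth was the number of fragments at which FPKM × (length − 200) of 3430 single-transcript genes (GENCODE M21) came closest to whole numbers: 70.6% to 75.7% of low genes lay within 0.1 of one, against 20% for evenly spread values. Fragments of a gene use its longest RefSeq-linked coding transcript and intervals cover counting error only. Coordinates are those of RefSeq, GRCm38.p6. Of the gene names 27 had become dates and were kept.

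Named genes were the 10 members, in each list the genes with the highest and lowest log2 change and those with an adjusted p below 0.05, and the 5 most alike genes. Dusp2, Dusp8, Dusp16, Myc, Etv1, Etv4, Spred3, Dusp9, Egr1, Junb, Grb2 and the cell type markers were named after their values were seen. Members and lists were chosen with earlier results of these data known. Plots used Python 3.11.15 and matplotlib 3.10.9.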

Additional observations from a re-analysis of the deposited data

How the results depend on the processing

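The count of feedback genes with an adjusted p below 0.05 was 0 under every alternative run (pseudocount, filter, scaling, trend, replicate block and each liver left out). The count of all tested genes with an adjusted p below 0.05, which was 3, became 1 without a filter and 1 to 11 with single livers left out, with the lowest count when control liver 3 was omitted and 7, 5 and 11 when control liver 2, lipophagy liver 2 or lipophagy liver 3 was. With single livers left out, 0 to 2 feedback genes had an unadjusted p below 0.05 (limma), each lower. Of all tested genes, 5.24% to 8.20% had one with lower values. The groups did not overlap in 0 to 4 feedback genes, each lower, against 14.3% to 18.5% of all tested genes lower and 18.4% to 25.9% higher. The median of the feedback genes was -0.31 with a pseudocount of 0.1, was -0.068 with quantile normalization and ranged from -0.25 to -0.078 with single livers left out. Quantile normalization turned the signs of Dusp7 (0.068) and Spry4 (0.055). With single livers left out, log2 changes ranged from -0.090 to 0.013 for Dusp7, -0.25 to 0.11 for Spry4, -0.27 to 0.021 for Spred2, -0.23 to 0.044 for Dusp4, -0.28 to 0.80 for Dusp1, -0.27 to 0.39 for Epha2 and -0.0025 to 0.22 for Elk4. The cause of these turns was not tested. Of 408 values of single named genes under the alternatives, 389 kept their direction and, where a test was made, their side of the threshold, 15 turned sign, 3 lost the call (Phlda1, with an adjusted p of 0.163, 0.0547 and 0.0640) and 1 gained it.

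A pairing by liver number was not shown, and 3 livers per group are too few to exclude one. Deviations of same-numbered livers correlated at 0.25, 0.23 and -0.057, and not every liver correlated best with its own number. With the replicate block, 43 genes in all had an adjusted p below 0.05, among them Fgf21 (0.0199), and 2 feedback genes, Dusp6 and Spry1, had an unadjusted p below 0.05 (limma), with adjusted p of 0.160 and 0.267, against 7.93% of all tested genes with lower values in that fit.

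Depth limits Dusp4, Dusp5 and Spry2, where counting error reaches 41.9%, 46.1% and 31.6% of the value in the liver with the fewest estimated fragments.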

Other observations

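Both groups had the same order of livers for Dusp6, with liver 2 highest, then liver 3, then liver 1. This order was looked at after the values were seen. Among the 15 tested ERK targets, Egr1 and Junb, both immediate early genes, had it too, against 3.05% of all tested genes, and of the 82 tested genes in the pathway lists 3 had it, the third being Grb2. Egr1 was at 4.58, 29.6 and 12.3 FPKM in control livers 1, 2 and 3 and 1.76, 10.1 and 3.42 FPKM in lipophagy livers 1, 2 and 3. Junb was at 27.0, 33.1 and 32.3 FPKM and 24.9, 28.2 and 25.5 FPKM. The livers' numbers have no known link between the groups.

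Lipophagy liver 3 held the highest value for 14 of the 82 tested pathway genes, or 17.1%, and for 16.5% of all tested genes. Control liver 1 held it for 26 of the 82, or 31.7%, against 18.3% of all tested genes, and lipophagy liver 1 for 10, or 12.2%, against 28.5%. In lipophagy liver 3, Spry4, Dusp1, Epha2 and Errfi1, chosen after their values were seen, were at 1.12, 29.6, 6.66 and 267 FPKM, against at most 0.768, 9.24, 3.80 and 203 FPKM in the other 5 livers.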
